A study of Mus musculus with 14 samples.

Results

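Fc receptors bind the constant part of antibodies, and 6 mouse genes of this family were followed over 14 arrays of marrow-derived dendritic cells: Fcgrt, Fcgr1, Fcgr2b, Fcgr3, Fcgr4 and the shared signalling chain Fcer1g. They are 6 of the 18193 genes that had a probe set of their own on the array. Each gene is represented by the single-gene probe set with the highest mean log2 value over the 14 arrays, so the probe sets were chosen by their mean level and the mean levels given below describe that choice. The genes were picked for study with earlier results of these arrays in view, so their calls are not independent evidence. All 6 passed the filter that left 12172 genes for testing, a value above the overall median of 7.52 on at least 2 arrays.

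The cells were bone marrow progenitors of BALB/c mice, grown for 8 days in recombinant GM-CSF and fed on days 3 and 6. For 1 h they received 5 µM CLIK148, an inhibitor of the lysosomal protease cathepsin L, 5 µM CA074Me, an inhibitor of cathepsin B, or an equal volume of the solvent DMSO (0.01%). One DMSO group, one CLIK148 group and one CA074Me group then stayed unstimulated. Further DMSO groups received CpG DNA at 25 µg/mL, which activates Toll-like receptor 9 and is labelled pro-Th1, or tumour necrosis factor alpha (TNF) at 500 U/mL, labelled pro-Th2. CLIK148 was followed by CpG in one more group and CA074Me by TNF in another, which gives 7 groups. No source used here gives the age of the mice or the time from stimulus to harvest. Each group has 2 arrays, titled biological replicates 1 and 2. The design text describes independent repeats, and these numbers are taken here as experiments 1 and 2, which the titles do not state.

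Immunoglobulin G receptors on myeloid cells come as activating and inhibitory forms that work against each other. Fcgr1, the high-affinity receptor, and Fcgr3 and Fcgr4, which bind immune complexes, signal through the immunoreceptor tyrosine-based activation motif (ITAM) of the chain encoded by Fcer1g and on to the kinase Syk. Fcgr2b carries an inhibitory motif and recruits the lipid phosphatase SHIP1, encoded by Inpp5d. Fcgrt encodes the heavy chain of the neonatal Fc receptor FcRn, which pairs with beta-2-microglobulin, binds antibody in acidic endosomes, spares it from lysosomal breakdown and in dendritic cells takes part in routing immune complexes to antigen presentation.

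Fcgrt and Fcgr3 were the members that set stimulated from unstimulated cells. Their values on all 6 unstimulated arrays lay above those on all 8 stimulated arrays, whatever the inhibitor and in both experiments. Such a complete separation in the same direction held for 986 of the 12172 tested genes (8.1%). Fcgr1 and Fcgr4 had changes of opposite sign under CpG and TNF in experiment 1 and, in DMSO cells, of the same sign in experiment 2, and Fcgr2b and Fcer1g were lower in experiment 2 in every group.

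The cultures carried markers of dendritic cells beside those of other myeloid cells. All 12 dendritic cell markers analysed were brighter than the overall median, as were 11 of 11 macrophage and monocyte markers and 9 of 9 granulocyte markers. Of the mast cell and basophil markers 5 of 8 were, with Tpsb2 and Cma1 dim throughout, and of the B cell and natural killer cell markers 1 of 6, with Cd79a, Pax5, Ncr1, Gzma and Eomes dim. The bulk arrays cannot tell fewer cells of a type from less RNA per cell. Array medians over all probe sets lay between 7.48 and 7.54, and replicates of a group correlated with r from 0.961 to 0.985 over the tested genes.

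The probe sets of the 6 genes ranged from moderately bright to among the brightest. By mean log2 level over the 14 arrays, Fcer1g (13.75) was brighter than 99.0% of genes, Fcgr3 (13.19) than 98.0% and Fcgr2b (12.43) than 95.9%. Fcgr1 (11.21) stood at the 88.8th percentile, Fcgrt (9.46) at the 68.4th and Fcgr4 (8.52) at the 55.2nd, and since each probe set has its own affinity these levels do not rank the transcripts. By spread, Fcgr1 (SD 0.765 over 14 arrays) and Fcgrt (SD 0.637) varied more than 98.5% and 97.2% of tested genes. In GRCm38.p6, Fcgr2b (chr1:170960558-170976071), Fcgr4 (chr1:171018926-171029761), Fcgr3 (chr1:171051169-171065915) and Fcer1g (chr1:171229572-171234349) lie close together on chromosome 1. Fcgr1 lies at chr3:96282909-96293969 and Fcgrt at chr7:45092993-45103822.

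The promoter windows of Fcgrt, Fcgr1, Fcgr3 and Fcgr4 are shown because they differ in motif content. RefSeq windows of 250 bases before to 50 after the start site (GRCm38.p6) were found for 6 of 6 members and are written 5′ to 3′ on the gene's strand. Capitals mark matches, sought on both strands, to GAGGAA (a PU.1-type motif), TTCNNNGAA (STAT), the interferon response motif and the kB motif. Fcgr3 has a further window that starts close by and holds the same matches.
Fcgrt promoter, chr7:45103773-45104072 (minus strand): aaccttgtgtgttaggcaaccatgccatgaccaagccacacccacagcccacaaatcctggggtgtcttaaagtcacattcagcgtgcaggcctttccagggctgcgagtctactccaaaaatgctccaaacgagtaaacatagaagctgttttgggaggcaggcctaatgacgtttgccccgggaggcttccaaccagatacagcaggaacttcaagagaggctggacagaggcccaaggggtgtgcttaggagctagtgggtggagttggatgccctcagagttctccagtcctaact
Fcgr1 promoter, chr3:96293920-96294219 (minus strand): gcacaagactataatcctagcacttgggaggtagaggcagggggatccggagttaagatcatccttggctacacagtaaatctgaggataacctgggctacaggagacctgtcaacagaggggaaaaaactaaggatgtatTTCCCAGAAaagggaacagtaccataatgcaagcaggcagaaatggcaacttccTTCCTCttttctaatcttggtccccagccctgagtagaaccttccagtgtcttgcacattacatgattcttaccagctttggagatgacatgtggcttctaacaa
Fcgr3 promoter, chr1:171059354-171059653 (minus strand): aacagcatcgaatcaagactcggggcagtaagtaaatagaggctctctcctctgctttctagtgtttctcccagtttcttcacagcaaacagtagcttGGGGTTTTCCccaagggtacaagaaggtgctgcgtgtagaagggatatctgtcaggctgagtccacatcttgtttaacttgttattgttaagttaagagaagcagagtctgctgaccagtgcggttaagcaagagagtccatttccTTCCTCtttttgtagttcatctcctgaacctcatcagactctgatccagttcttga
Fcgr4 promoter, chr1:171018676-171018975 (plus strand): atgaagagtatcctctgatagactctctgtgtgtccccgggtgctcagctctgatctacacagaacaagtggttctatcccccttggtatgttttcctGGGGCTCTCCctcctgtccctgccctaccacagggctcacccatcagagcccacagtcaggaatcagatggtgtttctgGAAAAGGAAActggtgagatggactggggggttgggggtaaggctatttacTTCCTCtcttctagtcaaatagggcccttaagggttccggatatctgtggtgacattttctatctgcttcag

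PU.1 is a transcription factor of myeloid cells, and the windows of Fcgr1, Fcgr3 and Fcgr4 each held 1 match to its GAGGAA, all on the opposite strand (TTCCTC), where 28.3% of 32851 promoter windows hold at least 1. Fcgr1 also held the STAT motif, found in 8.30% of windows. Fcgr3 and Fcgr4 held the kB motif (4.51% of windows), and Fcgr4 the interferon response motif (3.44%). None of these matches overlapped another. No match lay in the windows of Fcgrt, Fcgr2b or Fcer1g, which says only that these letters are not there.

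Fcgrt was lower after each stimulus. Its log2 level was 10.47 and 9.89 in unstimulated DMSO cells (experiments 1 and 2), 10.22 and 9.83 after CLIK148, and 10.47 and 9.84 after CA074Me. It was 8.90 and 8.94 after DMSO and CpG, 8.86 and 8.68 after CLIK148 and CpG, 9.12 and 9.19 after DMSO and TNF, and 9.23 and 8.83 after CA074Me and TNF. The lowest unstimulated array stood 0.60 above the highest stimulated one, and among stimulated DMSO cells the CpG arrays lay below the TNF arrays.

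With CpG, Fcgrt fell from 10.18 ± 0.41 to 8.92 ± 0.03 (mean ± SD, n = 2 each), a log2 change of -1.26 ± 0.25 (SE; 95% interval -1.83 to -0.69) or 2.40-fold. A gene is called where its p, adjusted over all tested genes, is under 0.05 in limma, and a fit with the experiment as a block takes out the gap between the experiments. The limma adjusted p of Fcgrt was 0.0442, and 0.345% of tested genes had a lower change. It was the 1 member called in this comparison, where 1.92% of all tested genes were called, 0.854% as lower. With the block the limma adjusted p was 0.00310, and 3 members were called as lower, against 13.7% of tested genes called as lower and 19.9% called at all. The call did not hold in limma without the first DMSO array (-0.97, adjusted p 0.289), without the second (-1.55, 0.109) or without the first CpG array (-1.24, 0.266). It held without the second CpG array and was also lost under 4 other settings, at adjusted p 0.0543 to 0.170.

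After TNF the Fcgrt level was 9.16 ± 0.05, a log2 change of -1.02 ± 0.25 with a limma adjusted p of 0.295, and 0.0184 with the block. No member was called with TNF in limma, where 0.115% of tested genes were called. At an unadjusted p under 0.05, 2 members passed (Fcgrt and Fcgr3) beside 879 of all tested genes, and the same 2 were called with the block, where 3.11% of tested genes were called, 1.97% as lower. The CpG and TNF comparisons share their DMSO arrays, so the likeness of their values is not independent.

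The change had the same direction and a similar size in cells given an inhibitor first, on arrays whose values do not enter the DMSO differences. All comparisons share the estimate of spread and the same 2 experiments, so they are not independent. Fcgrt changed by -1.26 ± 0.25 with CpG after CLIK148 (limma adjusted p 0.0623, block 0.00394) and by -1.12 ± 0.25 with TNF after CA074Me (0.0800, block 0.00513). No member was called there without the block, against 0.813% and 1.31% of tested genes, while 2 members had an unadjusted p under 0.05 in each, as had 16.6% and 12.1% of tested genes. With the block Fcgrt and Fcgr3 were called in both, against 17.1% and 11.1% of tested genes, or 13% and 6.16% as lower. In a comparison chosen after seeing the data, which averages the CpG change over DMSO and CLIK148 cells (4 arrays against 4), Fcgrt fell by 1.26 ± 0.18 log2 (limma adjusted p 0.00436). The matching TNF average over DMSO and CA074Me cells gave a fall of 1.07 ± 0.18 log2 (0.0141). Across all genes, 13.7% and 3.86% were called in these averages, 9.1% and 1.95% as lower.

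**Figure D1:**
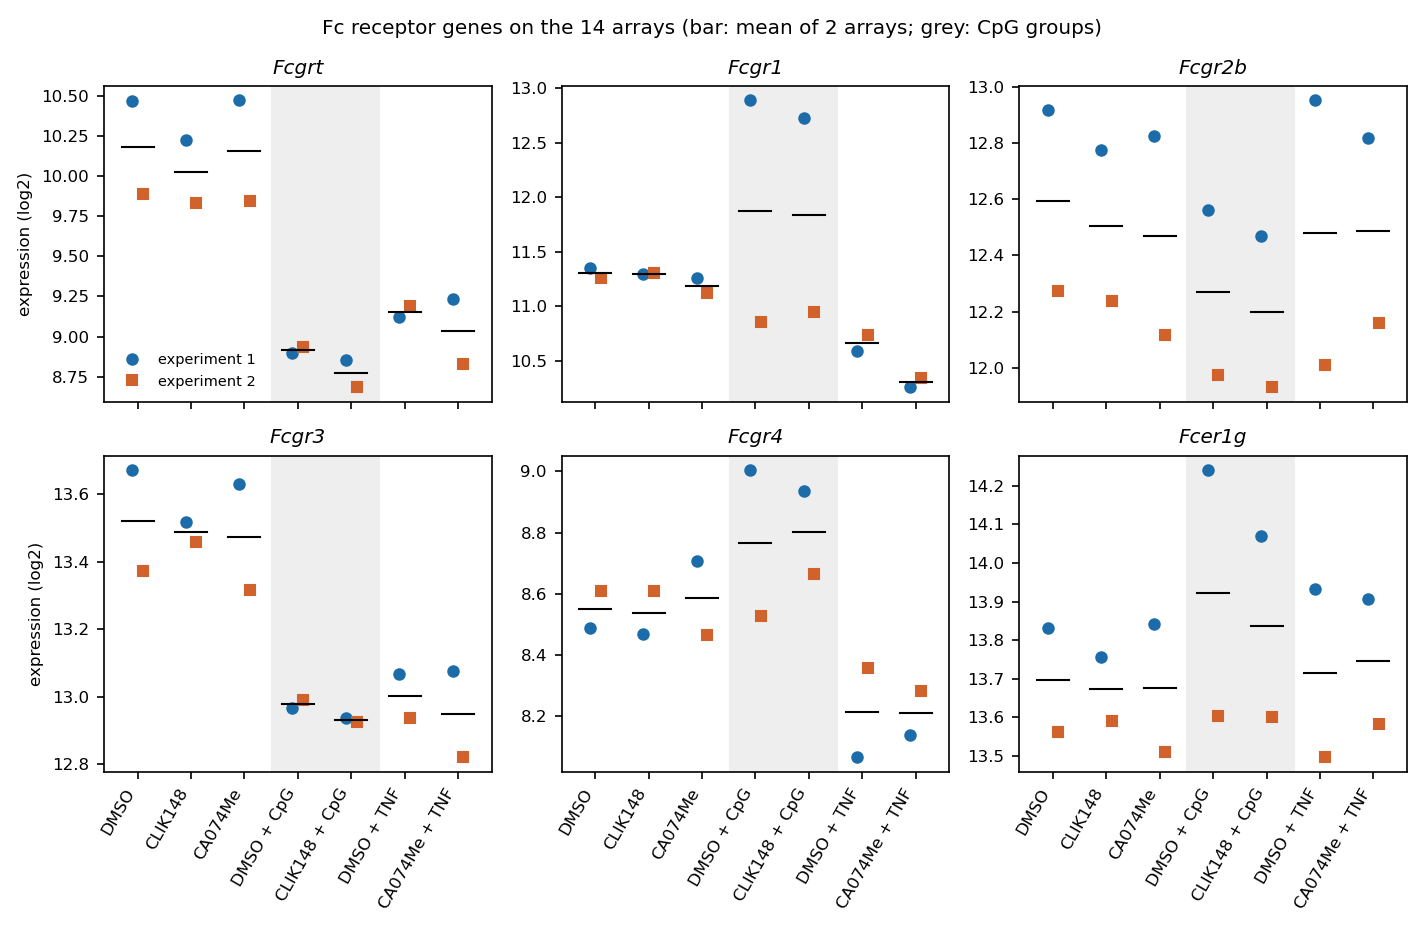
Log2 RMA level (vertical axis) of the 6 Fc receptor genes on each of the 14 arrays, by treatment group (horizontal axis), with the 2 experiments marked separately. Fcgrt and Fcgr3 lie lower on all 8 stimulated arrays than on all 6 unstimulated ones, and Fcgr1 reaches 12.89 and 12.73 with CpG in experiment 1 only.

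Fcgr3, the activating receptor for immune complexes, followed the same division with a smaller step. Its log2 levels were 13.67 and 13.37 in DMSO cells, 13.52 and 13.46 after CLIK148 and 13.63 and 13.32 after CA074Me. They were 12.96 and 12.99 after CpG, 12.94 and 12.92 after CLIK148 and CpG, 13.07 and 12.94 after TNF and 13.08 and 12.82 after CA074Me and TNF. The gap between the unstimulated and the stimulated arrays was 0.24, and Fcgr3 and Fcgrt kept the same order of stimulated below unstimulated in both experiments.

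The CpG change of Fcgr3 was -0.54 ± 0.14 log2 (limma adjusted p 0.0802, block 0.00803) and its TNF change -0.52 ± 0.14 (0.320, block 0.0278). After CLIK148 the CpG change was -0.56 ± 0.14 (0.0963, block 0.00877), and after CA074Me the TNF change was -0.52 ± 0.14 (0.129, block 0.0109). These 4 comparisons thus fell short of the threshold without the block. In the averages chosen after seeing the data Fcgr3 fell by 0.55 ± 0.10 log2 with CpG (limma adjusted p 0.00940) and by 0.52 ± 0.10 with TNF (0.0218).

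Fcgr1, the high-affinity receptor, behaved differently in the 2 experiments. It stood at 11.35 and 11.26 in DMSO cells, at 11.30 and 11.30 after CLIK148 and at 11.26 and 11.12 after CA074Me. With CpG it was 12.89 and 10.86, and with CLIK148 and CpG 12.73 and 10.95. With TNF it was 10.60 and 10.74, and with CA074Me and TNF 10.26 and 10.35. The first experiment's CpG arrays were the highest of all 14, while the second experiment's lay below every unstimulated array.

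Averaged over the experiments the CpG change of Fcgr1 was 0.57 ± 0.64 log2 (limma adjusted p 0.674), made of 1.54 and -0.40. Its TNF change was -0.64 ± 0.64 (adjusted p 0.862), with -0.76 and -0.52 in the 2 experiments, and -0.89 ± 0.64 after CA074Me (0.673). All 4 TNF arrays lay below all 6 unstimulated arrays, a pattern chosen after seeing the values. How many of all tested genes share it was not counted, so it is a description only. The dimmer Fcgr1 probe set (mean 9.04) gave CpG changes of 0.77 and -0.35 and TNF changes of -0.47 and -0.38.

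Fcgr4, an activating receptor with a preference for certain antibody subclasses, had the dimmest probe set of the members. Its levels were 8.49 and 8.61 in DMSO cells, 8.47 and 8.61 after CLIK148 and 8.71 and 8.47 after CA074Me. They were 9.004 and 8.53 with CpG, 8.94 and 8.66 with CLIK148 and CpG, 8.07 and 8.36 with TNF and 8.14 and 8.28 with CA074Me and TNF. As for Fcgr1, the TNF arrays were the 4 lowest and the first experiment's CpG arrays the highest. The share of all tested genes with this order was not counted either.

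The Fcgr4 change was 0.22 ± 0.18 log2 with CpG (limma adjusted p 0.546) and -0.34 ± 0.18 with TNF (0.771). The difference between CpG and TNF was 0.55 ± 0.18 (95% interval 0.16 to 0.95), with 0.94 in experiment 1 and 0.17 in experiment 2 (adjusted p 0.630, block 0.193). For Fcgr1 that difference was 1.21 ± 0.64, with 2.29 and 0.12 (adjusted p 0.857, block 0.324). The other 4 members differed between the stimuli by -0.24 (Fcgrt) to 0.21 (Fcer1g). No member was called between CpG and TNF in limma with or without the block, where 0.00822% of tested genes (0.435% with the block) were called, while 1 member, Fcgr4, had an unadjusted p under 0.05, as had 6.35% of tested genes.

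Fcer1g, the common ITAM chain, had levels of 13.83 and 13.56 in DMSO cells, 13.76 and 13.59 after CLIK148 and 13.84 and 13.51 after CA074Me. With CpG it was 14.24 and 13.60, with CLIK148 and CpG 14.07 and 13.60, with TNF 13.93 and 13.50 and with CA074Me and TNF 13.91 and 13.58. The second experiment was lower in all 7 groups, with gaps of -0.64 to -0.17. Fcer1g changed by 0.23 ± 0.26 log2 with CpG (limma adjusted p 0.677) and by 0.02 ± 0.26 with TNF (0.990).

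Fcgr2b, the inhibitory receptor, differed between the experiments in every group. Its levels were 12.92 and 12.27 in DMSO cells, 12.77 and 12.24 after CLIK148, 12.82 and 12.12 after CA074Me, 12.56 and 11.98 after CpG, 12.47 and 11.93 after CLIK148 and CpG, 12.95 and 12.01 after TNF, and 12.82 and 12.16 after CA074Me and TNF. The second experiment was lower in all 7 groups here too, with gaps of -0.94 to -0.54. Fcgr2b and Fcer1g were the 2 members with this order, which 9.97% of tested genes share.

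The CpG change of Fcgr2b was -0.33 ± 0.42 log2 (limma adjusted p 0.720), near -0.35 in experiment 1 and -0.30 in experiment 2, and with the block its adjusted p was 0.0431. After CLIK148 the CpG change was -0.31 (block adjusted p 0.0555). TNF gave -0.11 ± 0.42 (0.955). The other bright Fcgr2b probe sets had CpG changes of -0.36, -0.36 and -0.23 and TNF changes of -0.12, -0.13 and -0.11. Fcgr2b and Fcgr3 have closely similar sequences. The name of the Fcgr2b probe set used here, ending in _s_at, marks it as able to match more than 1 transcript. The separation of these genes on the array is therefore uncertain.

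The change of the activating Fcgr3 was lower than that of the inhibitory Fcgr2b in each pair of arrays. The Fcgr3 change minus the Fcgr2b change was -0.35 and -0.09 log2 with CpG, -0.64 and -0.17 with TNF, -0.28 and -0.23 with CpG after CLIK148, and -0.55 and -0.54 with TNF after CA074Me. These 8 values were not tested and the CpG and TNF values of DMSO cells share their unstimulated arrays.

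**Figure D2:**
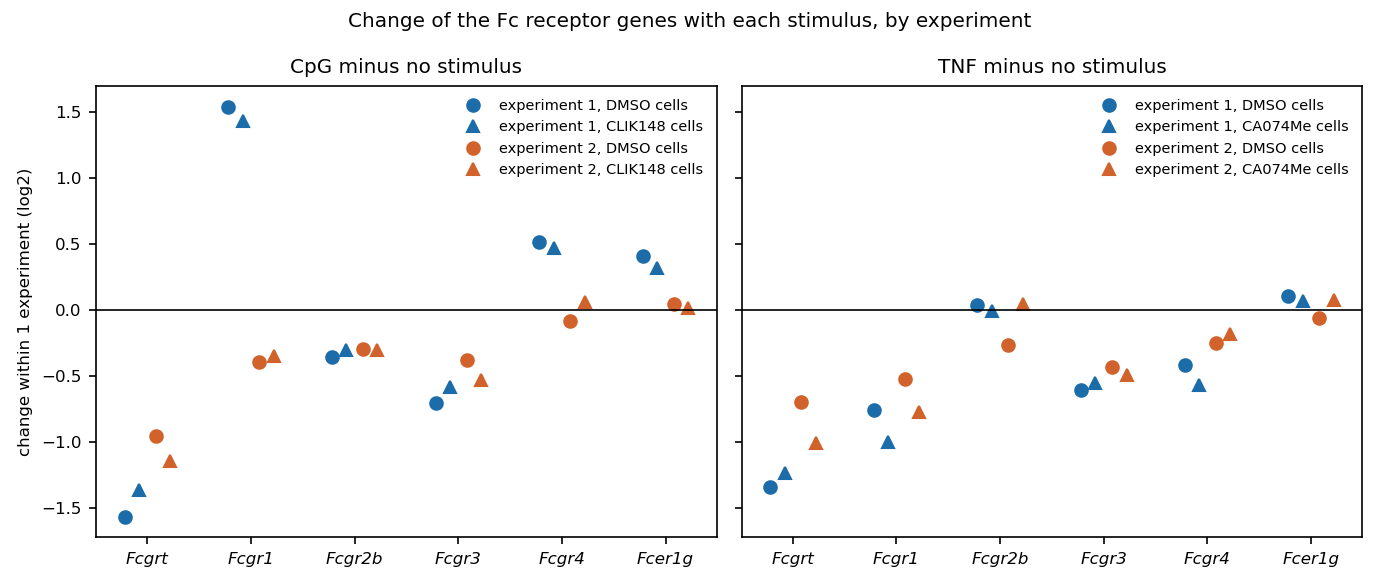
Log2 change from the matching unstimulated array (vertical axis) of each Fc receptor gene with CpG and with TNF, drawn separately for the 2 experiments. The Fcgr1 change with CpG is 1.54 in experiment 1 and -0.40 in experiment 2, while Fcgrt and Fcgr3 are below 0 in every pair.

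The difference between experiments was itself tested by adding an experiment term to the CpG and TNF changes, a fit chosen after seeing the data. The cultures of an experiment serve as its replicates there, so p covers the spread between cultures within these 2 experiments only. The CpG term is the gap between experiments (2 minus 1) on the CpG arrays less that on all unstimulated arrays, CA074Me included. For Fcgr1 it was -1.83 ± 0.09 log2 (limma adjusted p 2.58e-07). The CpG changes of Fcgr1 were 1.54 and 1.43 in experiment 1 (DMSO and CLIK148 cells) and -0.40 and -0.35 in experiment 2. The CpG term was -0.38 ± 0.12 for Fcgr4 (0.0297) and -0.30 ± 0.09 for Fcer1g (0.0230). For Fcgrt it was 0.46 ± 0.13 (0.0179), its fall being smaller in experiment 2. Fcgr3 (0.23, adjusted p 0.0825) and Fcgr2b (0.07, 0.638) did not pass. The term was called for 32.6% of tested genes, and a CpG change above 0 in experiment 1 and below 0 in experiment 2 with both DMSO and CLIK148, as for Fcgr1, was seen for 5.74%. For TNF no member passed in limma (adjusted p 0.207 to 0.926), where 2.5% of tested genes did.

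Unstimulated cells of the 2 experiments also differed. Without stimulus, the level in experiment 2 minus that in experiment 1 was -0.63 log2 for Fcgr2b (limma adjusted p 1.11e-05), -0.53 for Fcgrt (0.000375), -0.26 for Fcer1g (0.00377) and -0.22 for Fcgr3 (0.0118). Fcgr1 (-0.08, adjusted p 0.350) and Fcgr4 (0.01, 0.959) did not pass. The background for this comparison was 36% of tested genes.

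The cathepsin inhibitors were compared with DMSO to ask whether blocking either protease altered these genes. Members differed from DMSO by -0.15 (Fcgrt) to -0.0040 log2 (Fcgr1) after CLIK148 and by -0.12 (Fcgr2b) to 0.04 (Fcgr4) after CA074Me. In limma 0 members were called, fitted either way, and 0 reached an unadjusted p under 0.05. Of all tested genes 0% were called in either comparison, while 12 and 66 genes reached that unadjusted p without the block.

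CLIK148 and CA074Me, both epoxysuccinyl inhibitors given at the same dose and time, were compared directly. The difference ranged from -0.13 for Fcgrt (95% interval -0.70 to 0.44) to 0.11 for Fcgr1 (-1.34 to 1.56). None of the 6 members was called in limma or had an unadjusted p under 0.05, and 0% of all tested genes were called, with 58 at an unadjusted p under 0.05. The intervals reached 0.31 (Fcgr3) to 1.45 (Fcgr1) to either side, and 0.22 to 1.23 with the block.

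Under a stimulus the inhibitors gave similar values. CLIK148 with CpG against DMSO with CpG gave -0.15 (Fcgrt) to 0.04 (Fcgr4). CA074Me with TNF against DMSO with TNF gave -0.36 (Fcgr1) to 0.03 (Fcer1g). For Fcgr1 the 2 experiments gave -0.34 and -0.39, the interval was -1.81 to 1.09, and 0.329% of tested genes had a lower change. In limma 0 members passed in either comparison, in both fits, also at an unadjusted p under 0.05. Of all tested genes 0% were called, 68 and 98 of them with an unadjusted p under 0.05, and with the block 1 gene (0.00822%), which is no member, was called after CA074Me and TNF.

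The interaction terms ask whether an inhibitor altered the response to the stimulus. They ranged from -0.06 (Fcer1g) to 0.05 (Fcgr4) for CLIK148 and CpG and from -0.25 (Fcgr1) to 0.13 (Fcgr2b) for CA074Me and TNF. No member was called or had an unadjusted p under 0.05, and 0% of all tested genes were called in limma, with 15 and 80 at an unadjusted p under 0.05. The 95% intervals reached 0.43 (Fcgr3) to 2.05 (Fcgr1) to either side, and 0.30 to 1.75 with the block.

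**Figure D3:**
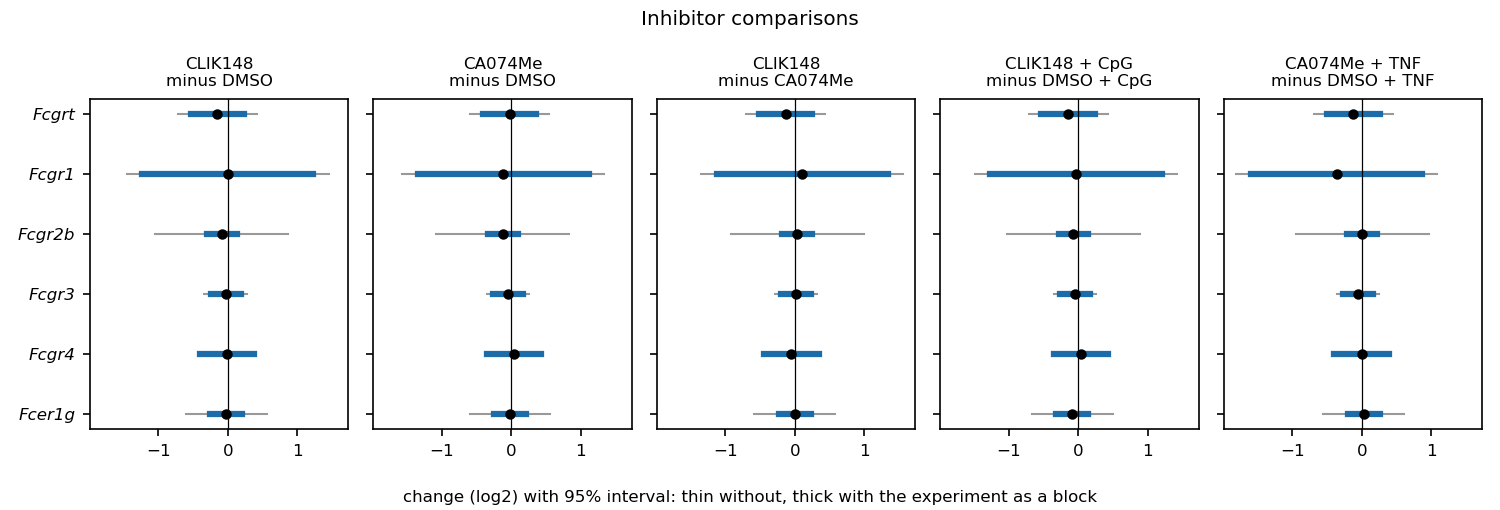
Log2 difference (horizontal axis, with 95% intervals) of the 6 genes in the comparisons of the cathepsin inhibitors with DMSO or with each other. Every interval includes 0, and the widest, for Fcgr1, reach 1.45 to either side.

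Among genes of the activating pathway, 3 of 18 tested were called as lower with CpG and 0 as higher. Of all tested genes 0.854% were called as lower and 1.07% as higher, or 13.7% and 6.19% with the block. In the list 10 changes were above 0 and 8 below, with a median of 0.08 against -0.05 over all tested genes. Lat2, an adaptor also called NTAL, fell by 1.04 ± 0.13 log2 (limma adjusted p 0.00903), the exchange factor Vav3 by 0.76 ± 0.12 (0.0260) and the kinase Btk by 0.60 ± 0.11 (0.0314). Syk, which docks on the ITAM, was at 0.28 ± 0.20 (0.489). With the block 2 more were called as higher, Blnk (1.07, block adjusted p 0.00930), an adaptor, and Ncf1 (0.50, block adjusted p 0.0126), a subunit of the phagocyte oxidase. With TNF no gene of the list passed in limma, and 4 had an unadjusted p under 0.05, as had 7.22% of all tested genes. With the block 2 were higher (Pik3cd and Prkcd) and 2 lower (Vav3 and Lat2), against 1.14% and 1.97% of all tested genes. The list's median with TNF was -0.07.

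Of the 15 tested genes of inhibitory signalling, none was called with CpG in limma. An unadjusted p under 0.05 was reached by 6 of them, and by 18.3% of all tested genes. With the block 3 were higher (Ptpn11, Dok1 and Cblb) and 3 lower (Inpp5d, Dok2 and Dok3), against 6.19% and 13.7% of all tested genes. The list's median was -0.05. Inpp5d, the phosphatase that docks on Fcgr2b, was at -0.81 ± 0.21 (limma adjusted p 0.0874, block 0.0170). The largest changes of the list were -0.88 for Cd300a, an inhibitory receptor, and 0.86 for the ubiquitin ligase Cblb. With TNF the median was -0.20, and none of the 15 was called with or without the block. Of them 4 reached an unadjusted p under 0.05, as did 7.22% of all tested genes. The next list holds receptors that pair with ITAM adaptors and the adaptor Tyrobp itself. Of its 8 tested genes none was called in limma with either stimulus. Trem2 alone had an unadjusted p under 0.05, with CpG, where it was lower with the block (-0.60, block adjusted p 0.0375). Clec4e was at 0.79 and the adaptor Tyrobp at -0.20 with CpG, and the list's medians were -0.05 with CpG and -0.07 with TNF.

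A further list holds the FcRn partner B2m and genes of recycling. Of its 6 tested genes none was called in limma with CpG or TNF in either fit, at medians of 0.16 and 0.01. An unadjusted p under 0.05 was reached by 2 with CpG and 1 with TNF, beside 18.3% and 7.22% of all tested genes. B2m, the light chain of FcRn and of MHC class I, was at 0.18 ± 0.11 with CpG (limma adjusted p 0.437), in the opposite direction to Fcgrt. The recycling gene Ehd1 was at 0.85 and Rab11fip5 at -0.75. Of the 6 tested other Fc-binding receptors none was called in limma, 1 and 0 having an unadjusted p under 0.05, at medians of 0.42 and 0.07. With the block Fcrl1 (0.61) was higher with CpG, and Fcrls was lower with CpG (-1.02) and with TNF (-0.83). The shares of all tested genes called in these ways were 6.19%, 13.7% and 1.97%. Fcmr, the IgM receptor, was at 0.98 with CpG. Trim21, the cytosolic antibody receptor, was at 1.40 in experiment 1 and -0.04 in experiment 2.

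**Figure D4:**
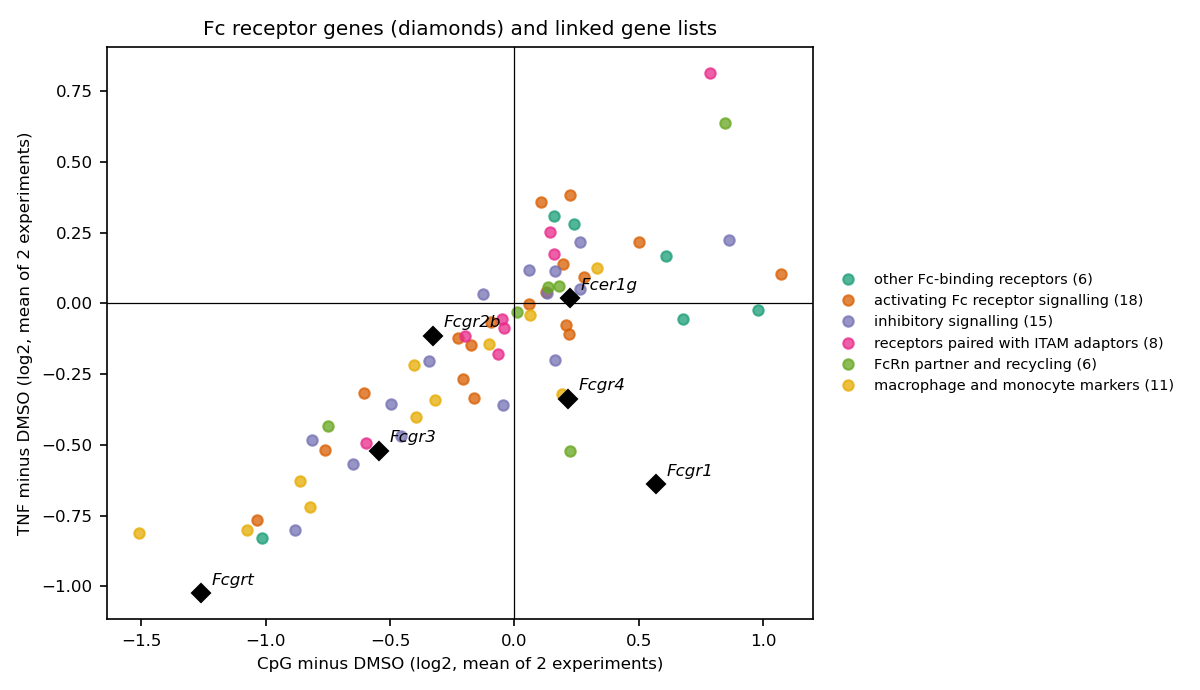
Log2 change from DMSO cells with CpG (horizontal axis) and with TNF (vertical axis), one point a gene. The points are the tested genes of the 5 linked lists and the macrophage and monocyte markers. The Fc receptor genes are drawn as diamonds. The medians of the 5 linked lists, not drawn, lie between -0.20 and 0.42. The 3 genes of the drawn lists called with CpG, Lat2, Vav3 and Btk, belong to activating signalling.

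The mean levels of macrophage and dendritic cell markers ranged lower on the stimulated arrays, where Fcgrt and Fcgr3 were also lower, with an overlap for the macrophage markers under TNF. The mean log2 level of the 11 macrophage and monocyte markers was 11.76 to 12.35 on unstimulated arrays, 11.43 to 11.71 with CpG and 11.44 to 11.82 with TNF. For the 12 dendritic cell markers the ranges were 11.67 to 11.82, 11.29 to 11.55 and 11.37 to 11.55. Among the latter Clec10a (-1.60, limma adjusted p 0.0326) and Mgl2 (-1.36, 0.00909) fell with CpG, and Mgl2 fell with TNF (-1.28, 0.0348). Cd209a was at -1.48 with CpG (limma adjusted p 0.162, block 0.0234). The median CpG change of the 12 dendritic cell markers was -0.07, against -0.05 over all tested genes. With CpG 6 of the 12 were above 0, and Ccr7, which guides dendritic cells to lymph nodes, was at 1.17 (limma adjusted p 0.183, block 0.0220). Of the macrophage and monocyte markers 0 were called in limma with either stimulus, 4 and 2 had an unadjusted p under 0.05 (18.3% and 7.22% of tested genes), and 6 were lower with CpG and the block (13.7% of tested genes). Their largest CpG changes were -1.51 for C1qa and -1.07 for C1qc. Of the 11, 8 were below 0 with CpG and 3 above, Cd14 the highest at 0.33. The granulocyte markers spanned 11.64 to 12.01, 11.80 to 11.97 and 11.67 to 12.04, with CpG changes of at most 0.14 (Ngp) and 0.11 (S100a8), and 0 were called or had an unadjusted p under 0.05. The same 0 held for the mast cell and basophil markers, where Hdc was at 1.03 and Cpa3 at 0.26, and for Ms4a1 (0.17), the tested B cell marker. The part of these markers in the Fc receptor results was not tested.

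Likeness of pattern over all tested genes was measured as Pearson's r over the 14 arrays after each experiment's mean was subtracted, as a description only, since the arrays share groups. For some of the genes named, r was much lower without that subtraction. The nearest 3 genes to Fcgrt were Txndc16 (0.994), Arhgap25 (0.993) and Slc14a1 (0.993), and to Fcgr3 Exosc8 (0.991), Emb (0.987) and Cd34 (0.987). For Fcgr1 they were Snx2 (0.988), Fgl2 (0.986) and Oas1c (0.982), and for Fcgr4 Il18 (0.953), Lysmd3 (0.945) and Slc25a12 (0.944). Fcgr2b had Eola1 (0.938), 2210016F16Rik (0.937) and Cass4 (0.910), and Fcer1g had Rab1a (0.972), B2m (0.957) and Eif4e (0.956). Among the members themselves the pair nearest each other was Fcgrt and Fcgr3 (0.977), followed by Fcgr1 and Fcgr4 (0.924).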

How the data were processed

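RNA of 14 cultures was hybridised to Affymetrix mouse arrays from 100 ng, per the labels' protocols. The deposited log2 values are RMA summaries of probe sets made by the authors in R 3.0.1, per the submitters' processing notes. RMA corrects background, normalises quantiles and summarises probes, which can compress large changes. No source used here gives its settings. Of 45101 probe sets 34945 had 1 gene in the array annotation, 932 several and 9160 none, beside 64 controls. Of the single-gene probe sets 34741 matched RefSeq.

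limma 3.58.1 in R 4.3.3 fitted 7 groups on 14 arrays with 7 residual degrees of freedom, in 12 comparisons, 2-sided. P-values were adjusted by Benjamini-Hochberg over 12172 genes per comparison, and a gene under 0.05 is called. An alternative fit added the experiment, which left 6 degrees of freedom. The design text describes independent repeats, and differences between replicates correlated with r from 0.455 to 0.935 over all pairs of groups. The replicate numbers were therefore taken to pair the arrays by experiment, which the titles do not state. The experiment terms had 4 residual degrees of freedom. Each array is 1 culture, and 2 arrays a group limit the precision. Other alternatives were no filter, mean or all probe sets of a gene, cyclic loess, reference-gene scaling, array weights and leaving out each array.

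Named were the 6 members, the 3 tested genes nearest each in pattern, the called genes of each list or otherwise its 2 largest changes, and B2m, Syk, Inpp5d, Tyrobp and Trim21. The members and lists were chosen with earlier results of these data known. The fit was tested on simulated data.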

Additional observations from a re-analysis of the deposited data

Results flagged for a closer look

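The CpG change differed between the experiments for 4 members in the fit with experiment terms, where 32.6% of all tested genes also passed in limma. The CpG term (experiment 2 minus 1, against all unstimulated arrays) was -1.83 log2 for Fcgr1, 0.46 for Fcgrt, -0.38 for Fcgr4 and -0.30 for Fcer1g. The sign of the change itself was opposite in the experiments for Fcgr1 in both inhibitor states (1.54 and 1.43 against -0.40 and -0.35), while Fcgrt was below 0 in all. The experiments differ in everything that was done anew, which cannot be told apart here.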

How the results depend on the processing

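The replicate block was fitted because the replicate numbers are taken to pair the arrays. It moved the members called with CpG from 1 to 3 (Fcgrt, Fcgr2b and Fcgr3). Those called with TNF, with CpG after CLIK148 and with TNF after CA074Me each went from 0 to 2 (Fcgrt and Fcgr3). In the other planned comparisons the block changed no count of members called. With CpG the count was 0 with no filter, cyclic loess, reference-gene scaling or array weights, and 0 to 1 without 1 array; the cause was not tested. There the adjusted p of Fcgrt was 0.0544, 0.0646, 0.0543 and 0.170. Averaging over inhibitor states, chosen after seeing the data, gave 2 members with CpG (3 with the block) and 2 with TNF (2 with the block). Over all genes the block moved the count from 234 to 2420 with CpG, 14 to 379 with TNF, 1 to 53 between them, 99 to 2077 with CpG after CLIK148 and 159 to 1355 with TNF after CA074Me, and array weights gave 48, 34, 1, 155 and 369. Cyclic loess gave 23 with TNF and 175 with CpG after CLIK148, and averaging a gene's probe sets 2 between CpG and TNF. Without 1 array the CpG count ran from 1 to 1611 and the TNF count from 0 to 5, that between them from 0 to 1, and those after CLIK148 and CA074Me from 1 to 44 and from 5 to 59.

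Leaving out 1 array turned the sign of some uncalled members. With CpG the change ran from -0.45 to 1.59 for Fcgr1, -0.021 to 0.45 for Fcgr4 and -0.093 to 0.54 for Fcer1g, and after CLIK148 from -0.35 to 1.43 for Fcgr1 and -0.073 to 0.40 for Fcer1g. The negative ends are without the first experiment's CpG array. With TNF it ran from -0.59 to 0.36 for Fcgr2b (0.21 without the first DMSO array) and -0.20 to 0.24 for Fcer1g (-0.12 without the second DMSO array). After CA074Me it ran from -0.34 to 0.37 for Fcgr2b and -0.10 to 0.23 for Fcer1g. Between CpG and TNF it ran from -0.68 to 0.26 for Fcgr2b, -0.090 to 0.040 for Fcgr3 and -0.11 to 0.52 for Fcer1g. Leaving out 1 array mixes the comparison with the gap between experiments. The largest member difference, in size, between CLIK148 and DMSO under CpG thereby went from 0.147 (Fcgrt) to between 0.853 and 1.05 (Fcgr1), in the CLIK148 and CpG interaction from 0.063 to at most 1.05, between CLIK148 and DMSO without stimulus from 0.152 to between 0.180 and 0.442, and between CLIK148 and CA074Me from 0.130 to between 0.304 and 0.444. Without subtraction of experiment means, r with Fcgr2b was -0.510 for Eola1 and -0.463 for 2210016F16Rik, the sign being set by that subtraction. For Cass4 r with Fcgr2b was then 0.222. With Fcgr3 it was 0.576 for Exosc8, 0.985 for Emb and 0.537 for Cd34.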
